A study of Homo sapiens with 24 samples.

Results

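The comparison described here set keratinocytes that received the AMD1 inhibitor EGBG against keratinocytes of the same age that received no compound. It was taken from the array titles: 4 arrays of day 6 cells with EGBG and 4 arrays of day 6 cells without it, 8 of the 24 arrays in the series. Of the 47304 probes on each array, 11828 were tested, namely those whose detection p-value was below 0.01 in 4 or more of these 8 arrays, and 9428 of them carry 1 gene symbol, for 7698 genes.

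All cells were N/TERT-1, a human epidermal keratinocyte line immortalized with telomerase, so the results describe 1 line and its cultures. The EGBG group was differentiated by raising calcium to 1.2 mM at high confluence, received 50 µM EGBG on day 3 and was harvested on day 6. The day 6 group had the same medium, calcium and harvest day, with nothing added. Both groups shared the keratinocyte serum-free medium with 25 µg/mL bovine pituitary extract and 0.2 ng/mL EGF, and 4 biological replicates are stated per group. Levels in the remaining groups are given beside some results: EGBG with 1 mM spermidine/spermine (SDSM), SDSM alone, 1 mM putrescine (PUT) alone, and undifferentiated cells in 0.3 mM calcium. The labels do not say if each polyamine of that pair was at 1 mM or only their sum.

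Polyamines are small, positively charged molecules that bind RNA and other nucleic acids, and cells hold their levels within narrow limits. Ornithine decarboxylase (ODC1) makes putrescine from ornithine, which arginases release from arginine. AMD1 decarboxylates S-adenosylmethionine, and the product donates the aminopropyl groups that SRM and SMS add to make spermidine and then spermine. EGBG, ethylglyoxal bis(guanylhydrazone), inhibits the AMD1 enzyme. In the outer epidermis, keratinocytes stop dividing, fill with keratin and filaggrin, crosslink a protein envelope beneath the membrane, cover it with ceramides and shed through the action of proteases.

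Each EGBG array detected 11161 to 11823 probes and each day 6 array 11019 to 12396. Mean unnormalized intensities were 532 to 620 on EGBG arrays and 437 to 609 on day 6 arrays. The first principal component, with 59.4% of the variance, separated the EGBG from the day 6 arrays. The second, with 20.6%, separated arrays numbered 1 and 3 from arrays numbered 2 and 4 in both groups. The lowest correlation between 2 arrays of a group was 0.955, and the highest between an EGBG and a day 6 array was 0.932. Of 8 keratinocyte markers tested, 7 were not called (KRT5, KRT14, KRT1, KRT10, JUP, SFN and DSG3) and involucrin (IVL) was lower; with the replicate number as a block JUP and SFN were also called lower, at -0.42 and -0.36 (adjusted p = 0.0428 and 0.0297). The top signal, 15.92 on the log2 scale, was the same on every array, so differences between very bright probes may be compressed.

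EGBG cells differed from day 6 cells at 5027 of the 11828 probes, called at a Benjamini-Hochberg adjusted p under 0.05 in limma. Of the tested probes, 2839 (24%) were higher and 2188 (18.5%) were lower in EGBG cells. The falls were larger: 997 probes fell and 640 rose at least 2-fold, 271 fell and 39 rose at least 4-fold, and 87 fell and 4 rose at least 8-fold. All 4 EGBG arrays lay above all 4 day 6 arrays at 2180 of the 11828 tested probes, called or not, and below them at 1698. Among the 8991 probes detected on all 8 arrays, 2211 (24.6%) were higher and 1545 (17.2%) were lower. Counted by gene, with the brightest probe standing for each, 2010 of 7698 genes (26.1%) were higher and 1571 (20.4%) were lower, and the median difference over all genes was 0.08 on the log2 scale. The split depends on scaling: higher calls were 56.5% of all calls here, 48.2% with arrays scaled to their median, and 37.2% in the authors' normalized table. There the median difference was -0.05 over probes, against 0.10 here, so small rises shared by many members of a group are relative to that shift.

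In the polyamine pathway, the target of the compound was itself higher. AMD1 had log2 signals of 10.45, 8.88, 9.98 and 9.33 on the EGBG arrays, against 9.06, 7.62, 8.29 and 8.62 on the day 6 arrays. The groups overlapped, since day 6 replicate 1 lay above EGBG replicate 2, but each EGBG array was above the day 6 array of the same number. The difference was 1.26 ± 0.32 (SE), a 2.40-fold rise (adjusted p = 0.00273). AMD1 averaged 8.21 ± 0.62 in EGBG with SDSM, 8.46 ± 0.22 in SDSM, 9.41 ± 0.12 in PUT and 7.83 ± 0.47 in undifferentiated cells (SD, n = 4 each). The array measures AMD1 RNA and says nothing of the enzyme's activity.

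ODC1 and the arginases, which supply putrescine, were lower. ODC1 had 7.95, 7.42, 7.20 and 7.27 in EGBG cells, against 8.55, 8.59, 8.98 and 8.70 in day 6 cells, and the groups did not overlap. It fell by 1.25 ± 0.19 on the log2 scale (adjusted p = 1.24e-05). Arginase 1 (ARG1), which releases ornithine from arginine and also belongs to the late epidermal program, had 6.81, 8.48, 8.36 and 8.86, against 12.65, 12.55, 12.48 and 12.81. That fall was 22.6-fold (log2 difference -4.50 ± 0.26, adjusted p = 2.86e-12), and undifferentiated cells averaged 5.53 ± 0.09. The second arginase, ARG2, detected on 1 of 4 EGBG arrays, had 6.19, 6.05, 6.24 and 6.73 in EGBG cells, against 7.36, 7.94, 8.75 and 8.64 in day 6 cells, a difference of -1.87 ± 0.23 (adjusted p = 5.46e-07).

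Of the aminopropyl transferases, spermidine synthase (SRM) rose and spermine synthase (SMS) did not pass the test. SRM had 9.35, 9.40, 8.91 and 9.18 in EGBG cells, against 8.90, 8.72, 8.32 and 8.41 in day 6 cells, without overlap (log2 difference 0.62 ± 0.17, adjusted p = 0.00541). SMS had 9.28, 9.35, 10.15 and 9.19, against 9.93, 9.44, 9.62 and 9.50 (-0.13 ± 0.23, adjusted p = 0.68). EGBG replicate 3 was the single high SMS array.

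The regulators of polyamine level moved in both directions. SAT1, which acetylates spermidine and spermine for export or breakdown, had 13.95, 14.36, 14.36 and 14.64 in EGBG cells, against 14.81, 14.83, 14.89 and 14.78 in day 6 cells, a fall of 0.50 ± 0.13 between groups that did not overlap (adjusted p = 0.00293). SAT1 missed the threshold where only these 8 arrays were normalized and fitted (-0.46, adjusted p = 0.055). Antizyme (OAZ1), which binds ODC1 and sends it to the proteasome, had 12.89, 13.49, 13.28 and 13.18, against 13.86, 14.04, 14.10 and 14.16 (-0.83 ± 0.13, adjusted p = 9.77e-06). Antizyme inhibitor (AZIN1), which takes antizyme away from ODC1, had 10.28, 10.08, 10.67 and 10.28, against 9.86, 9.37, 9.73 and 9.52, a rise of 0.71 ± 0.14 (adjusted p = 0.000319). Antizyme mRNA needs a ribosomal frameshift that rises with polyamine levels, so its RNA level does not give its protein level. In the authors' normalized table AMD1, SRM and AZIN1 kept their direction at 1.01, 0.23 and 0.46, with adjusted p of 0.0519, 0.381 and 0.0639.

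**Figure D1:**
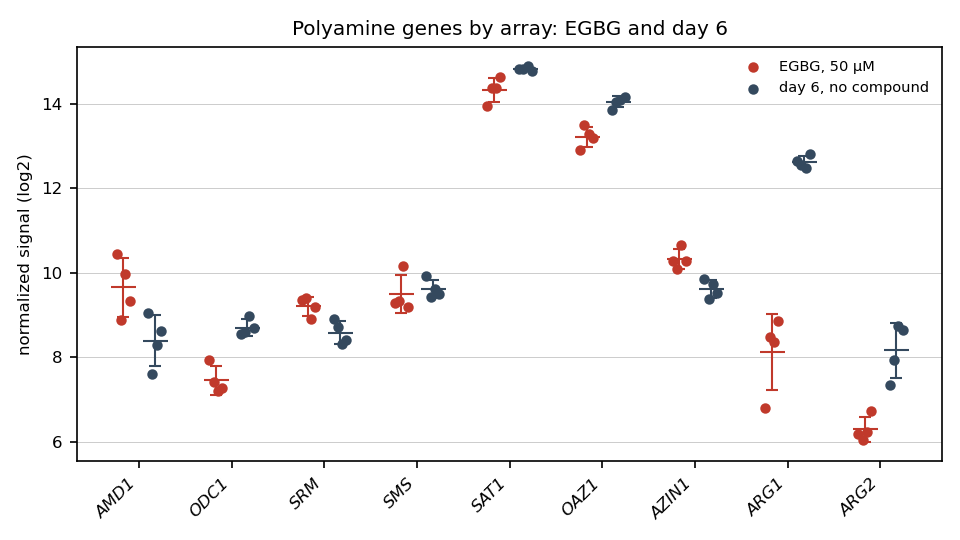
Normalized log2 signal (vertical axis) of 9 polyamine genes on each array, EGBG (red, left of each pair) and day 6 (dark, right), with the mean and SD of 4 arrays. ARG1 shows the widest gap, with a difference of -4.50, ODC1 and ARG2 also lie lower in EGBG cells without overlap, and AMD1 lies higher with overlapping groups.

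Over the polyamine synthesis and breakdown list, 7 of 15 tested genes were higher and 5 lower, with a median difference of 0.09. The higher ones included 4 genes of methionine salvage, the route that returns the methylthioadenosine left by SRM and SMS to methionine. These 4, MTAP, MRI1, APIP and ENOPH1, were named after their values were seen: they rose by 0.68 ± 0.16 (adjusted p = 0.0015), 0.56 ± 0.13 (0.00125), 0.80 ± 0.23 (0.00742) and 1.00 ± 0.12 (6.69e-07). In the authors' normalized table MTAP, MRI1 and APIP missed the threshold, at 0.49, 0.27 and 0.95 (adjusted p = 0.0652, 0.22 and 0.0723). APIP was detected on 1 of 4 day 6 arrays, and its groups overlapped. In the list of polyamine transport and hypusine, 2 of 10 genes were higher and 4 lower. DHPS, which uses spermidine to begin hypusine formation on the translation factor EIF5A, had 11.19, 11.66, 11.77 and 11.51 in EGBG cells, against 10.13, 10.90, 10.95 and 10.88 in day 6 cells (0.82 ± 0.16, adjusted p = 0.000157). SLC12A8, detected on 2 of 4 day 6 arrays, rose by 1.25 ± 0.22 (adjusted p = 8.2e-05). ATP13A4, of the P5-type transport ATPases, was detected on no EGBG array and was at least 1.37-fold lower (adjusted p = 4.6e-06). SLC3A2, a heavy chain of amino acid transporters, fell by 0.86 ± 0.22 (adjusted p = 0.00242).

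The methionine cycle supplies the S-adenosylmethionine that AMD1 consumes. Of 21 genes tested in it and in methyl transfer, 11 were higher and 3 lower (median 0.53); in the authors' normalized table the counts were 5 and 5. SHMT1, which loads folate with 1-carbon units and was detected on 1 of 4 day 6 arrays, had 8.28, 8.11, 7.61 and 7.97 in EGBG cells, against 7.02, 6.14, 6.44 and 6.16 in day 6 cells (1.55 ± 0.21, adjusted p = 2.1e-06). Methionine synthase (MTR) rose by 1.12 ± 0.16 and the mitochondrial S-adenosylmethionine carrier SLC25A26 by 1.06 ± 0.22 (adjusted p = 4.95e-06 and 0.000427). Cystathionine beta-synthase (CBS), which draws homocysteine out of the cycle towards cysteine, went the other way. It had 6.93, 6.51, 6.13 and 6.53 in EGBG cells, against 8.99, 9.63, 9.31 and 9.65 in day 6 cells, with detection on 1 of 4 EGBG arrays (-2.87 ± 0.30, adjusted p = 5.47e-08).

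The late keratinocyte program was lower nearly throughout. Of 42 cornified envelope genes tested, 41 were lower and 0 higher in EGBG cells, 38 of them by at least 2-fold, with a median difference of -3.16. For 7 of the 42 no EGBG array detected the gene. In bulk RNA, fewer cells at a late stage and less RNA per cell cannot be told apart. A gene could enter the test through the day 6 arrays alone, and among the 30 detected on all 8 arrays, 29 were lower. SPRR2B, a small proline-rich crosslinking protein, had 5.56, 5.45, 5.41 and 5.85 in EGBG cells, where no array detected it, against 11.10, 11.56, 10.42 and 10.84 in day 6 cells. It was at least 20.5-fold lower (adjusted p = 1.44e-16) and averaged 5.37 ± 0.04 in undifferentiated cells. Involucrin (IVL), an early scaffold of the envelope, had 6.66, 6.72, 6.74 and 6.29, against 10.10, 9.66, 9.57 and 9.74, with detection on 3 of 4 EGBG arrays (-3.16 ± 0.16, adjusted p = 1.82e-13). Cysteine-rich CRCT1 had 7.96, 8.80, 8.65 and 8.87, against 13.35, 13.24, 12.85 and 13.39 (-4.64 ± 0.23, adjusted p = 1.2e-13). Filaggrin-2 (FLG2), a filaggrin-like protein of the granular layer, had 6.52, 7.47, 6.94 and 7.20, against 11.38, 11.68, 11.13 and 11.31, with detection on 3 of 4 EGBG arrays (-4.34 ± 0.30, adjusted p = 4.87e-11). LCE3A was detected on no EGBG array and was at least 11.2-fold lower (adjusted p = 2.17e-11). In none of these genes did an EGBG array reach a day 6 array. Filaggrin (FLG) and loricrin (LORICRIN), the classic granular layer proteins, were named after their values were seen: FLG averaged 11.36 in EGBG and 14.29 in day 6 cells (-2.93 ± 0.31), and LORICRIN 11.44 and 14.69 (-3.25 ± 0.36), with adjusted p = 4.91e-08 and 1.27e-07.

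Many of these genes lie side by side on chromosome 1q in the epidermal differentiation complex, taken here as the RefSeq genes between S100A10 and S100A1. Of 93 listed genes 46 were tested, and 41 were lower and 0 higher, with a median of -3.22. The late cornified envelope (LCE) family was lower at 15 of 15 tested members, with differences of -4.58 to -2.03. The small proline-rich (SPRR) family was lower at 10 of 11. The S100 family, of which only part lies in the complex, was lower at 7 of 13. Within the complex 5 genes were not called, named here after their values were seen: S100A10 (-0.25 ± 0.11, called lower with the replicate block, adjusted p = 0.0458), SPRR1A (-0.09 ± 0.13), S100A6 (0.06 ± 0.13), S100A3 (-0.09 ± 0.22) and S100A14 (0.24 ± 0.22). SPRR2, LCE and similar near-identical copies can share signal on 50-base probes, so members of such families are not fully separate measurements.

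S100A7, psoriasin, an antimicrobial S100 protein, had the largest difference of the comparison. It had 9.82, 8.17, 7.80 and 8.02 in EGBG cells, against 13.53, 14.87, 13.63 and 14.57 in day 6 cells. That was a 52.1-fold fall (-5.70 ± 0.35, adjusted p = 5.6e-12), and undifferentiated cells averaged 7.22 ± 0.64. SPRR1A, by contrast, stayed among the brightest probes, with 15.24, 15.42, 15.28 and 15.29 in EGBG cells, against 15.51, 15.39, 15.30 and 15.40 in day 6 cells and 10.91 ± 0.36 in undifferentiated cells. Its log2 difference of -0.09 ± 0.13 did not pass the test (adjusted p = 0.603), at a signal near the top of the scale. SPRR1B, also added after its values were seen, had 14.31, 13.11, 14.07 and 12.74, against 15.79, 13.99, 14.92 and 14.52 (-1.25 ± 0.35, adjusted p = 0.00569), with overlapping groups. SPRR2A had 9.26, 7.59, 7.32 and 7.31, against 11.93, 12.09, 11.07 and 11.43 (-3.76 ± 0.32, adjusted p = 1.6e-09). SPRR2G had 11.73, 10.60, 10.83 and 10.24, against 14.61, 15.13, 14.58 and 14.94 (-3.96 ± 0.32, adjusted p = 6.31e-10). The differences within 1 gene family thus ran from -5.41 for SPRR2B to -0.09 for SPRR1A.

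**Figure D2:**
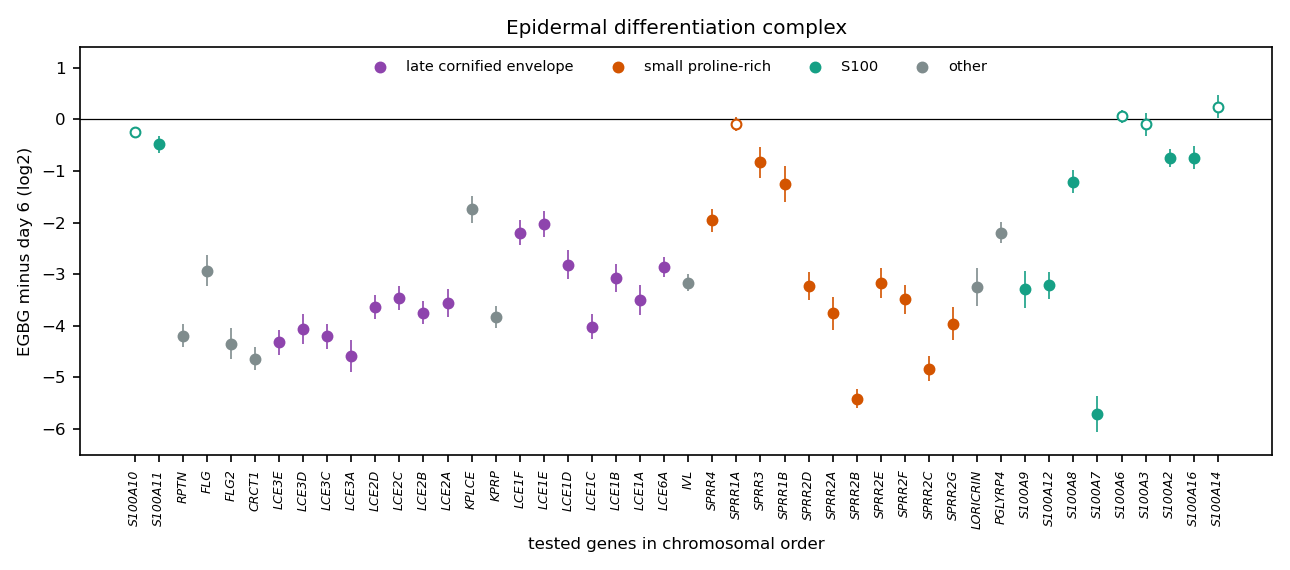
EGBG minus day 6 difference in log2 signal (vertical axis, bars are SE) of the 46 tested genes of the epidermal differentiation complex in chromosomal order, coloured by family. Open circles mark the 5 genes that were not called, among them SPRR1A at -0.09, and the 41 filled circles all lie below 0.

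The promoters of the SPRR genes are shown because members with unlike responses stand beside each other. They are RefSeq sequences on GRCh38.p14, each from 200 bases before to 20 after the annotated start and read in the direction of the gene: SPRR1A at chr1:152983881-152984100 on the plus strand, SPRR1B at chr1:153031003-153031222 on the plus strand, SPRR2A at chr1:153057493-153057712 on the minus strand and SPRR2G at chr1:153150871-153151090 on the minus strand. Capitals mark matches to TGANTCA, the core bound by AP-1 (JUN and FOS dimers), searched on both strands.
SPRR1A: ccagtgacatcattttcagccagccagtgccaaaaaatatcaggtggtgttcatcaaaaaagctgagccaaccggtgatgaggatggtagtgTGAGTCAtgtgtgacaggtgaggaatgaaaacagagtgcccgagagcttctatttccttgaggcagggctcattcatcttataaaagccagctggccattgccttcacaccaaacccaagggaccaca
SPRR1B: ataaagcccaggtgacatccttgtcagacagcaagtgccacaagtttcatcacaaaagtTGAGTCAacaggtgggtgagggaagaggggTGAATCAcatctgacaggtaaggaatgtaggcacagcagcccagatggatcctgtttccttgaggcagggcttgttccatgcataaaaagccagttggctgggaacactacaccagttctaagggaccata
SPRR2A: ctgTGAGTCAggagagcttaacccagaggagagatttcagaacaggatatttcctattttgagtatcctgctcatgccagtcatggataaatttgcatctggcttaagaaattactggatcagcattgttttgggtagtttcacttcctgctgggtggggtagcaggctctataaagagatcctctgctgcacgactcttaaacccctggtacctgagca
SPRR2G: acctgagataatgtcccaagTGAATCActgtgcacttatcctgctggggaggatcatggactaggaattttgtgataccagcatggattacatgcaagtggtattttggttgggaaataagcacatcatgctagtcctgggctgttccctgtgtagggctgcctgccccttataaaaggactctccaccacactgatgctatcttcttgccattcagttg
All 4 promoters held the core: SPRR1A, which was not called, once, SPRR1B at 2 places, and SPRR2A and SPRR2G once each. Over the 300-base windows from 250 bases before to 50 after the start, TGANTCA was found in 6 of 8 SPRR promoters (75%), 0 of 14 late cornified envelope promoters, 14 of 41 promoters of the complex (34.1%), 31 of 172 genes that fell at least 4-fold (18%), 5.1% of tested genes and 7.8% of all 27305 RefSeq promoters. TATAAA on the sense strand was found in 7 of 8 SPRR promoters (87.5%), 7 of 14 late cornified envelope promoters (50%), 21 of 41 of the complex (51.2%), 4.2% of tested genes and 7.7% of all promoters. A match is a run of letters and not a measured binding site. The S100A7 promoter, at chr1:153460632-153460751 on the minus strand, is given from 100 bases before to 20 after the start, with TATAAA in capitals.
S100A7: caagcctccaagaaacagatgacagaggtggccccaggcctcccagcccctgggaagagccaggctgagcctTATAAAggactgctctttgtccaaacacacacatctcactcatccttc

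Genes for the lipid envelope fell with those for the protein envelope. Of 23 acylceramide and lipid genes tested, 21 were lower and 0 higher, with a median of -1.86. CYP4F22, which adds the omega-hydroxyl group to the very long acyl chain of acylceramides, had 6.11, 7.40, 6.97 and 7.31 in EGBG cells, against 10.09, 11.10, 10.19 and 11.22 in day 6 cells, with detection on 3 of 4 EGBG arrays (-3.70 ± 0.25, adjusted p = 2.38e-11). The epidermal lipase LIPN was detected on no EGBG array and was at least 3.93-fold lower (adjusted p = 3.87e-15). LIPM had 7.33, 6.93, 7.80 and 7.72, against 10.52, 10.01, 10.53 and 10.20 (-2.87 ± 0.19, adjusted p = 2.21e-11). The sphingosine-1-phosphate phosphatase SGPP2 fell by 2.62 ± 0.25 (adjusted p = 1.03e-08). The lipid transporter ABCA12, which loads lamellar granules, fell by 2.41 ± 0.18 (adjusted p = 2.51e-10).

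Of 38 proteases and inhibitors of the skin surface, 27 were lower and 1 higher (median -1.45). Kallikreins, serine proteases that cut corneodesmosomes during shedding, were lower at 9 of 10 tested. KLK6 had 6.95, 8.88, 8.62 and 8.55 in EGBG cells, against 11.42, 11.86, 11.67 and 12.07 in day 6 cells (-3.51 ± 0.30, adjusted p = 1.87e-09), and KLK9, detected on 1 of 4 EGBG arrays, had 6.47, 6.55, 6.99 and 6.04, against 10.33, 8.98, 9.39 and 9.99 (-3.16 ± 0.29, adjusted p = 6.08e-09). Their inhibitors fell with them: 10 of 12 serpins and 3 of 3 SPINK genes were lower. SERPINA12, also detected on 1 of 4 EGBG arrays, had 6.22, 5.80, 7.09 and 5.78, against 10.97, 10.47, 10.90 and 10.87 (-4.57 ± 0.23, adjusted p = 2.52e-13). WFDC12, a whey acidic protein inhibitor, had 8.55, 7.67, 9.02 and 7.78, against 12.70, 12.55, 12.85 and 13.18 (-4.57 ± 0.28, adjusted p = 4.31e-12), and a second probe gave -4.44.

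Antimicrobial genes were lower at 11 of 11 tested (median -2.16), each detected on all 8 arrays. Calprotectin subunit S100A9 had 13.67, 11.71, 12.44 and 11.02 in EGBG cells, against 15.57, 15.48, 15.44 and 15.54 in day 6 cells (-3.30 ± 0.35, adjusted p = 7.16e-08), while its partner S100A8 fell by 1.21 ± 0.22 (adjusted p = 0.000105), at signals near the top of the scale. S100A12 fell by 3.21 ± 0.26 and the siderophore-binding lipocalin LCN2 by 2.34 ± 0.26 (adjusted p = 6.83e-10 and 9.92e-08).

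The spinous layer program was lower in part. Of 19 genes, 10 were lower and 0 higher, with a median of -0.76. Calmodulin-like CALML5 had 8.24, 6.87, 8.0 and 6.88 in EGBG cells, against 12.52, 11.18, 12.14 and 11.46 in day 6 cells, a 20.1-fold fall (-4.33 ± 0.31, adjusted p = 8.12e-11). Corneodesmosin (CDSN), the adhesive protein of corneodesmosomes, detected on 2 of 4 EGBG arrays, had 6.71, 6.50, 6.67 and 6.09, against 9.53, 10.35, 9.68 and 10.35 (-3.49 ± 0.22, adjusted p = 6.53e-12). The early differentiation keratins were not called: KRT1 differed by -0.54 (adjusted p = 0.202) and KRT10 by 0.17 (adjusted p = 0.55). Among 17 keratins tested, 7 were lower and 2 higher. KRT23 had 7.43, 7.36, 8.10 and 7.34, against 12.46, 11.62, 12.16 and 11.77 (-4.44 ± 0.23, adjusted p = 2.12e-13), and KRT80 fell by 2.97 ± 0.21 (adjusted p = 6.47e-11). KRT15, a basal keratin detected on 2 of 4 day 6 arrays, had 6.65, 7.81, 7.98 and 7.58, against 6.71, 6.22, 6.69 and 6.25 (1.04 ± 0.25, adjusted p = 0.00163), with EGBG replicate 1 among the day 6 arrays. The stress keratins KRT16 and KRT6C fell by 1.04 ± 0.39 and 1.36 ± 0.42 (adjusted p = 0.034 and 0.0104). A second KRT16 probe was at -1.26 ± 0.33 (adjusted p = 0.00372). For the brighter probe, KRT16 was not called without EGBG replicate 2 (adjusted p = 0.11), without EGBG replicate 4 (0.142), without day 6 replicate 1 (0.13), without day 6 replicate 3 (0.0811), with median scaling (0.0515), with no filter (0.121) or with the 8 arrays fitted alone (0.0876, and 0.0923 when also normalized alone). KRT6C was not called without EGBG replicate 4 (0.0541) or with the 8 arrays fitted alone (0.0853, and 0.0886 when also normalized alone).

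Basal and junction genes showed no common direction. Of 16 basal keratin and hemidesmosome genes 3 were higher and 6 lower, and of 22 desmosome and junction genes 5 were higher and 7 lower. The gap junction protein GJB6 fell by 2.03 ± 0.18, and MARVELD2, a tight junction protein detected on no day 6 array, was at least 2.02-fold higher (adjusted p = 2.36e-09 and 7.78e-08). EPCAM, an adhesion protein of simple and progenitor epithelia, had 9.88, 10.12, 9.53 and 10.35 in EGBG cells, against 7.21, 7.61, 6.77 and 6.84 in day 6 cells. That 7.28-fold rise (2.86 ± 0.23, adjusted p = 7.15e-10) left EGBG cells at 9.97 ± 0.35, beside 10.40 ± 0.31 in undifferentiated cells. Of 7 simple epithelial genes tested, EPCAM was the only 1 called higher and 1 was called lower (median -0.24).

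Of 26 transcription factors of epidermal differentiation, 13 were lower and 0 higher (median -0.47). PRDM1 (BLIMP1), a transcriptional repressor active in the terminal stage, had 9.10, 8.98, 8.43 and 9.31 in EGBG cells, against 11.29, 11.68, 10.83 and 11.99 in day 6 cells (-2.49 ± 0.23, adjusted p = 7.41e-09). KLF4, which barrier formation in mice requires, had 9.99, 10.26, 9.96 and 9.97, against 11.99, 12.24, 11.10 and 11.87 (-1.75 ± 0.21, adjusted p = 2.63e-07). OVOL1, detected on no EGBG array, was at least 2.53-fold lower, and the nuclear receptor RORA fell by 1.89 ± 0.21 (adjusted p = 2.56e-09 and 1.53e-07). In the Notch pathway, which promotes spinous fate, 3 of 16 genes were higher and 3 lower, or 5 and 3 with the replicate block. The receptor NOTCH1 had 11.92, 12.73, 11.79 and 12.31, against 11.09, 10.78, 9.49 and 10.24 (1.79 ± 0.30, adjusted p = 3.65e-05).

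Genes of growth factor signalling were mostly lower. Of 19 EGF receptor ligands and feedback genes, 13 were lower and 1 higher (median -0.93). The ligand HBEGF had 8.38, 8.23, 7.96 and 8.90 in EGBG cells, against 9.77, 10.61, 11.76 and 11.94 in day 6 cells (-2.65 ± 0.34, adjusted p = 1.01e-06). PHLDA1, induced by growth factors, had 8.91, 8.25, 8.33 and 9.11, against 11.90, 12.39, 12.66 and 12.85, and averaged 13.55 ± 0.20 in undifferentiated cells (-3.80 ± 0.22, adjusted p = 1.55e-12). DUSP6, which dephosphorylates ERK, fell by 1.84 ± 0.23 and the RAS pathway inhibitor SPRED1, detected on 3 of 4 EGBG arrays, by 1.45 ± 0.19 (adjusted p = 8.93e-07 and 1.05e-06). Of 16 immediate early transcription factors, 11 were lower and 1 higher (median -0.72). EGR3 was detected on no EGBG array and was at least 3.78-fold lower, JUNB, also detected on none, at least 1.73-fold lower, and JUN fell by 1.30 ± 0.24 (adjusted p = 2.49e-09, 0.000193 and 0.000119).

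Secreted inflammatory signals fell as well. Of 18 genes of the interleukin-1 family and chemokines, 11 were lower and 0 higher (median -1.10). IL36RN, the antagonist of the IL-36 receptor, had 7.50, 6.94, 7.86 and 7.12 in EGBG cells, against 12.14, 11.58, 11.26 and 11.41 in day 6 cells (-4.25 ± 0.18, adjusted p = 1.31e-14). The agonist IL36G, detected on 1 of 4 EGBG arrays, had 7.12, 5.50, 5.60 and 5.76, against 9.42, 10.14, 10.09 and 10.32 (-3.99 ± 0.30, adjusted p = 1.35e-10), so ligand and antagonist fell together. IL1A had 9.73, 8.89, 9.34 and 10.38, against 11.29, 12.16, 12.88 and 12.78 (-2.69 ± 0.29, adjusted p = 6.81e-08). The eicosanoid list was split, with 5 of 18 higher and 7 lower. Cyclooxygenase 2 (PTGS2), detected on 2 of 4 EGBG arrays, had 6.67, 6.37, 6.43 and 7.27, against 10.48, 10.83, 10.56 and 11.49 (-4.15 ± 0.33, adjusted p = 4.66e-10), and HPGD, which breaks prostaglandins down, was detected on no EGBG array and was at least 4.42-fold lower (adjusted p = 5.67e-10). In the TGF-beta and BMP list 4 of 17 were higher and 8 lower: the inhibitors of differentiation ID1 and ID2 went opposite ways, at -1.91 ± 0.27 and 1.68 ± 0.21 (adjusted p = 4.45e-06 and 5.18e-07). Of 14 YAP and TEAD targets 1 was higher and 4 lower, led by tissue factor (F3) with 10.15, 10.86, 10.67 and 10.72, against 13.27, 13.44, 12.98 and 13.22 (-2.63 ± 0.19, adjusted p = 1.45e-10).

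**Figure D3:**
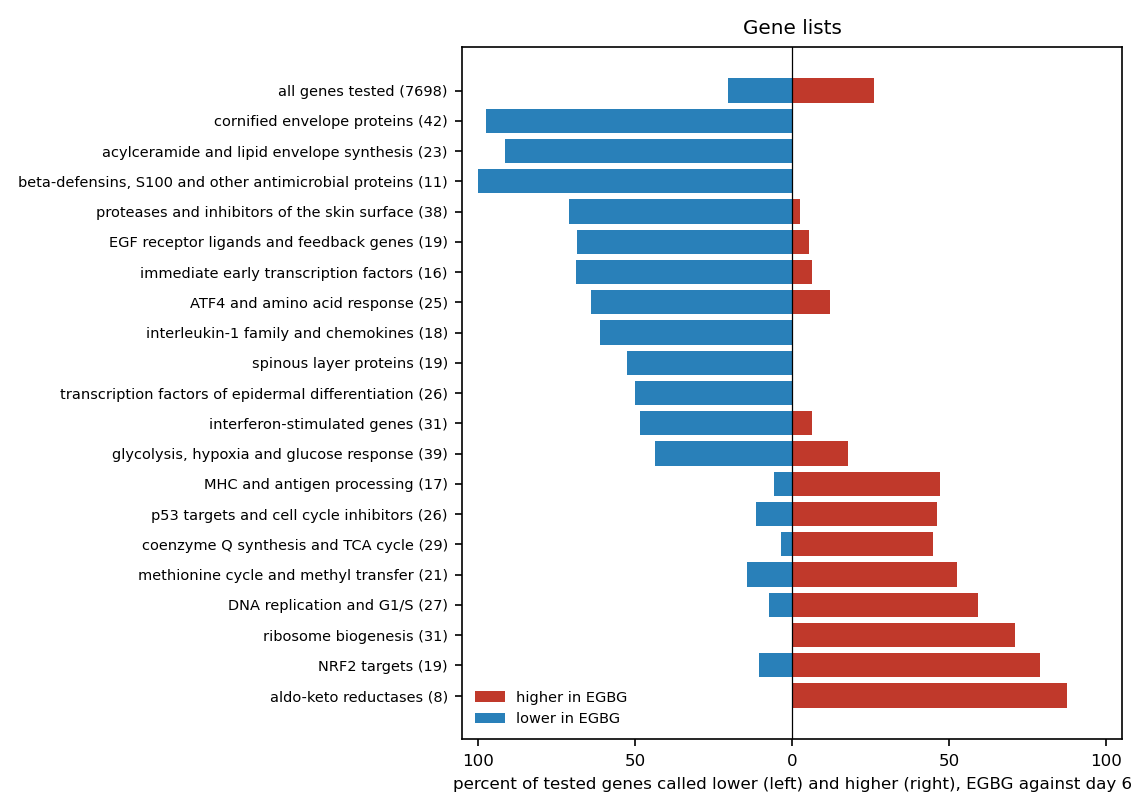
Percent of the tested genes of each list that were called higher (red, right) or lower (blue, left) in EGBG cells against day 6 cells, with the number tested in brackets and all genes at the top. Cornified envelope, lipid envelope and antimicrobial genes reach almost wholly to the left, and ribosome biogenesis, NRF2 and aldo-keto reductase genes reach far to the right, beside 26.1% higher and 20.4% lower over all genes.

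Among the groups that were mostly higher was ribosome biogenesis. Of 31 tested, 22 were higher and 0 lower, with a median of 0.70. RRP12, which takes part in pre-ribosome export, had 8.99, 8.97, 8.87 and 8.97 in EGBG cells, against 6.63, 7.07, 7.08 and 6.84 in day 6 cells, a 4.12-fold rise (2.04 ± 0.18, adjusted p = 2.94e-09). RRS1, an assembly factor of the large subunit, rose by 1.57 ± 0.20 and WDR12, a component of the PeBoW complex, by 1.45 ± 0.18 (adjusted p = 1.19e-06 and 4.6e-07). METTL1, which methylates guanosine in tRNAs, had 9.83, 10.08, 9.97 and 9.99, against 6.97, 7.69, 8.03 and 7.82 (2.34 ± 0.18, adjusted p = 3.47e-10). The rise of the list kept its direction in the authors' normalized table, with 13 higher and 0 lower, and in arrays numbered 1 and 3 alone, with 10 and 0. Cytosolic ribosomal proteins themselves were called at 11 higher and 1 lower of 73, or 18 and 1 with the replicate block.

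The promoter of MRTO4, a nucleolar assembly factor that rose by 1.28 ± 0.24 (adjusted p = 0.000142), is shown because it holds the E-box CACGTG, bound by MYC and related factors. It lies at chr1:19251605-19251824 on the plus strand, from 200 bases before to 20 after the start, with CACGTG in capitals.
MRTO4: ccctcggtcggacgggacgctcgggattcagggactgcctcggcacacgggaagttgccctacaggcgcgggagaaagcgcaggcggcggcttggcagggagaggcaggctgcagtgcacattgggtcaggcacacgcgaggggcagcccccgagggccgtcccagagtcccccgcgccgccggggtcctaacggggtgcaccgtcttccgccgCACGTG
CACGTG, a palindrome, was found in 9 of 26 ribosome biogenesis promoters (34.6%), 13.9% of genes that were higher, 9.3% of genes that were lower, 10.8% of tested genes and 7.4% of all promoters. A like share, 5 of 14 (35.7%), was found in the late cornified envelope family, which was lower at 15 of 15 tested members.

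Targets of NRF2, the regulator of the response to electrophiles, were higher at 15 of 19 and lower at 2, with a median of 0.77. The quinone reductase NQO1 had 12.09, 12.55, 12.65 and 12.85 in EGBG cells, against 10.26, 10.52, 10.33 and 10.51 in day 6 cells (2.13 ± 0.22, adjusted p = 3.01e-08). Carbonyl reductase CBR1 rose by 1.77 ± 0.25 (adjusted p = 3.62e-06). Aldo-keto reductases were higher at 7 of 8 tested, and AKR1C3 had 12.47, 13.96, 13.60 and 14.28, against 11.91, 11.89, 12.02 and 11.96 (1.63 ± 0.27, adjusted p = 2.44e-05); its near-identical relatives share probe sequence. Heme oxygenase 1 (HMOX1), on the same list, had 6.61, 7.85, 8.12 and 7.75, against 10.08, 10.52, 10.71 and 10.86, and so fell by 2.96 ± 0.27 (adjusted p = 5.24e-09). The other exception was the exporter ABCC3, detected on 3 of 4 EGBG arrays, which fell by 2.32 ± 0.24 (adjusted p = 2.99e-08).

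Of the mitochondrial families, more members were called higher than lower. Mitochondrial ribosomal proteins were higher at 37 of 71 and lower at 5 (median 0.40), complex I subunits at 13 of 28 and 0 (0.34), ATP synthase subunits at 8 of 18 and 0 (0.35), and cytochrome c oxidase subunits at 4 of 10 and 0 (0.39). These shifts depend on scaling, since in the authors' normalized table mitochondrial ribosomal proteins stood at 13 higher and 9 lower, and complex I at 7 and 1. MRPS18B had 11.51, 11.89, 11.53 and 11.81 in EGBG cells, against 10.73, 10.39, 10.31 and 10.34 in day 6 cells (1.24 ± 0.14, adjusted p = 1.24e-07), and NDUFA6 of complex I rose by 1.12 ± 0.21 (adjusted p = 0.000107). Coenzyme Q synthesis and the citrate cycle had 13 of 29 higher and 1 lower. COQ8A, a kinase-like protein of coenzyme Q synthesis, had 8.88, 9.56, 9.27 and 9.45 in EGBG cells, against 5.57, 5.31, 5.37 and 5.44 in day 6 cells, where no array detected it. It was at least 6.48-fold higher (adjusted p = 6.14e-16) and averaged 6.00 ± 0.26 in undifferentiated cells. COQ8A entered the test through the EGBG arrays alone, and its adjusted p belongs to the fitted difference, not to the bound. COQ2, the prenyltransferase of the same route, fell by 1.52 ± 0.18 (adjusted p = 4.71e-07), and cytosolic aconitase ACO1 rose by 1.70 ± 0.19 (adjusted p = 1.74e-07). PLD6, an outer membrane phospholipase of mitochondria detected on 3 of 4 day 6 arrays, had 10.06, 10.28, 9.84 and 10.08, against 6.86, 7.48, 6.50 and 7.34 (3.02 ± 0.21, adjusted p = 3.17e-11).

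Genes of DNA replication and G1/S were higher at 16 of 27 and lower at 2 (median 0.52), with 6 and 1 of 26 in the authors' normalized table. The sliding clamp PCNA had 11.03, 10.91, 11.22 and 11.08 in EGBG cells, against 9.55, 9.87, 10.05 and 9.46 in day 6 cells (1.33 ± 0.18, adjusted p = 1.79e-06), and thymidylate synthase TYMS rose by 1.14 ± 0.15 (adjusted p = 1.84e-06). Cyclin D1 (CCND1) fell by 1.24 ± 0.19 (adjusted p = 8.98e-06). Of 14 mitosis genes, 2 were higher and 3 lower (median 0.04). Among the 8 of them detected on all 8 arrays, 2 were higher and 0 lower (median 0.44). CDC20, the activator of the anaphase-promoting complex, was detected on no EGBG array and was at least 2.37-fold lower (adjusted p = 1.22e-05). It entered the test through the day 6 arrays alone. On a joint list of p53 targets and cell cycle inhibitors, 12 of 26 were higher and 3 lower (median 0.38), or 13 and 5 with the replicate block. RRM2B, the p53-induced ribonucleotide reductase subunit, had 8.78, 8.78, 8.62 and 8.78, against 6.55, 6.08, 6.35 and 6.05 (2.48 ± 0.18, adjusted p = 1.38e-10, detected on 1 of 4 day 6 arrays), and SESN1, detected on 3 of 4 day 6 arrays, rose by 2.34 ± 0.18 (adjusted p = 4.41e-10). TP53I3, a quinone oxidoreductase on the same list, was detected on no EGBG array and was at least 7.37-fold lower (adjusted p = 3.07e-11).

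Nutrient-responsive genes moved in opposite directions. TXNIP, an arrestin-like protein whose gene is induced by glucose and which limits glucose uptake, had 14.30, 14.33, 14.36 and 14.22 in EGBG cells, against 12.94, 11.80, 9.0 and 10.81 in day 6 cells. The EGBG arrays were tight and the day 6 arrays spread widely (14.31 ± 0.06 and 11.14 ± 1.67, SD, n = 4 each), and the 9.0-fold rise (3.17 ± 0.55) passed the test (adjusted p = 5.69e-05). Its paralog ARRDC4 had 11.59, 11.48, 11.78 and 11.67, against 10.15, 9.75, 8.17 and 9.41 (2.26 ± 0.27, adjusted p = 3.71e-07). In both genes day 6 replicate 3 was the lowest array and day 6 replicate 1 the highest of its group. The glucose transporter SLC2A3 had 8.48, 9.53, 9.12 and 9.13, against 12.13, 12.17, 12.09 and 12.58 (-3.18 ± 0.18, adjusted p = 1.87e-12). Over the glycolysis, hypoxia and glucose list 7 of 39 were higher and 17 lower (median -0.42).

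The TXNIP promoter is shown for its carbohydrate response element, the site type through which glucose-sensing MondoA and ChREBP act. It lies at chr1:145996560-145996779 on the minus strand, from 200 bases before to 20 after the start, with the match to the carbohydrate response pattern, in capitals.
TXNIP: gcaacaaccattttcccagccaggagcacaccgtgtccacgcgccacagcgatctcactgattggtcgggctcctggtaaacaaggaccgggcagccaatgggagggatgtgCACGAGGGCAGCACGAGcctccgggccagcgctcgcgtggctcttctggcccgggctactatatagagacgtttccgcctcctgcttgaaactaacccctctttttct
That pattern, searched on both strands, was found in 0.5% of all promoters, 0.8% of tested genes and 1.1% of genes that were higher.

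Targets of ATF4, the factor of amino acid shortage, were lower at 16 of 25 and higher at 3 (median -0.76). Asparagine synthetase (ASNS) had 10, 8.42, 8.59 and 9.45 in EGBG cells, against 11.54, 11.54, 12.28 and 11.86 in day 6 cells (-2.69 ± 0.40, adjusted p = 9.07e-06). PSAT1, of serine synthesis, had 9.62, 8.28, 8.16 and 8.72, against 10.61, 10.79, 11.82 and 10.74 (-2.30 ± 0.51, adjusted p = 0.000845), and TRIB3 fell by 2.05 ± 0.33 (adjusted p = 2.31e-05). Among metal-handling genes 4 of 19 were higher and 9 lower. Metallothionein MT2A had 9.50, 7.97, 9.51 and 7.85, against 12.60, 10.27, 12.38 and 10.85 (-2.82 ± 0.51, adjusted p = 8.52e-05), with arrays numbered 1 and 3 above those numbered 2 and 4 in both groups. MT1G was detected on no EGBG array and was at least 3.41-fold lower (adjusted p = 3.33e-11).

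Interferon-stimulated genes were lower at 15 of 31 and higher at 2 (median -0.50). HERC5, the ligase that attaches ISG15, was 1 of the 2: it had 10.28, 9.47, 9.94 and 9.95 in EGBG cells, against 6.26, 6.22, 6.61 and 6.10 in day 6 cells, with a log2 difference of 3.61 ± 0.21 (adjusted p = 2.86e-12). It was detected on 1 of 4 day 6 arrays, and it averaged 9.28 ± 0.56 in undifferentiated cells. Among the 22 interferon-stimulated genes detected on all 8 arrays, 9 were lower and 0 higher (median -0.18). IFI27 had 13.26, 9.53, 11.31 and 9.58, against 13.42, 12.77, 13.35 and 12.88 (-2.19 ± 0.59, adjusted p = 0.00445), with overlapping groups; in arrays numbered 1 and 3 alone its difference was -1.10 (adjusted p = 0.301). SAMD9 fell by 2.60 ± 0.18 (adjusted p = 4.44e-11). Antigen processing went the other way, with 8 of 17 higher and 1 lower (median 0.32), or 8 and 2 with the replicate block. The immunoproteasome subunit PSMB10 had 10.90, 11.63, 11.67 and 11.60, against 9.41, 9.51, 9.74 and 9.54 (1.90 ± 0.14, adjusted p = 1.83e-10), and the peptide transporter TAP1 rose by 1.05 ± 0.19 (adjusted p = 8.84e-05).

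**Figure D4:**
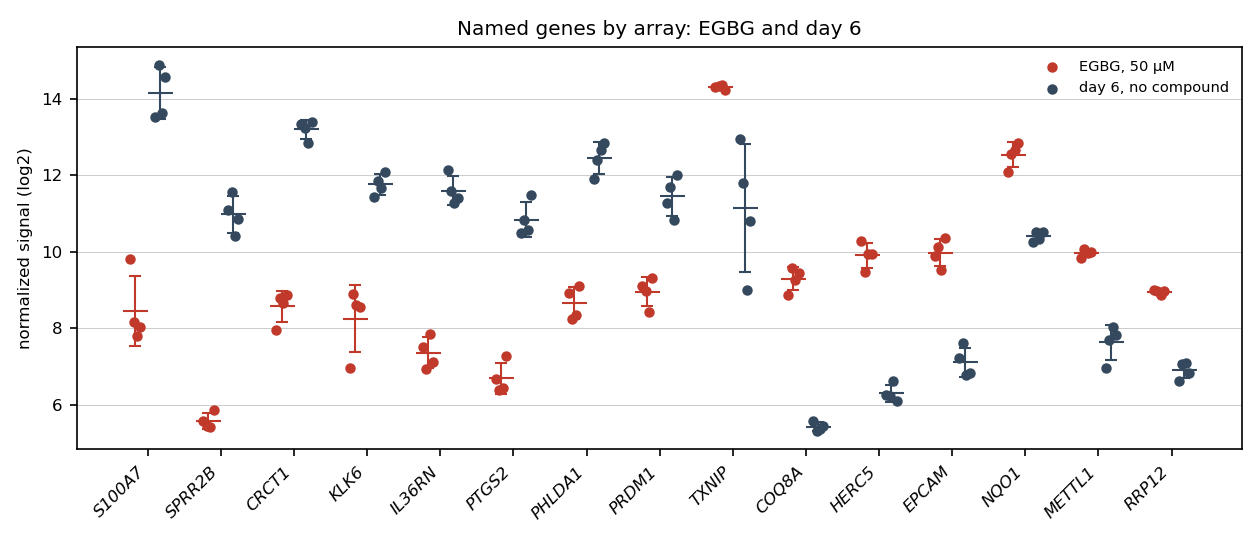
Normalized log2 signal (vertical axis) of 15 named genes on each array, EGBG (red, left of each pair) and day 6 (dark, right), with the mean and SD of 4 arrays. In each gene the EGBG arrays lie wholly below (S100A7 to PRDM1) or wholly above (TXNIP to RRP12) the day 6 arrays; TXNIP spans 9.0 to 12.94 in day 6 cells.

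Some probes crossed the detection limit. In all, 113 probes were detected on 4 of 4 EGBG and 0 of 4 day 6 arrays, and 269 the other way. Of the 113, 112 were called higher, and of the 269, 263 were called lower. Each passed the filter through 1 group alone, so these calls were largely set in advance. Of the first kind, COQ8A, EPCAM (by a second probe, at least 4.96-fold), CABYR, RASL11B, PLPP2 and GAD1 were the brightest, with rises of at least 3.07-fold to 6.48-fold. Of the second kind, SPRR2B, CRISPLD2, LRRC20, LCE1C, ZBED2 and LCE3A were the brightest, with falls of at least 11.2-fold to 20.5-fold. Of 1524 genes with several tested probes, 13 had probes called in both directions. ATP1B1, a sodium pump subunit, had 1 probe at -1.84 ± 0.18 and another at 2.32 ± 0.38 (adjusted p = 1.33e-08 and 2.39e-05), and CD44 had 1 at -0.76 ± 0.18 and another at 1.15 ± 0.18 (adjusted p = 0.00131 and 1.15e-05). Different transcripts and unequal probe behaviour were not told apart.

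Most markers of other skin cell types were detected on none of the 8 arrays. Of 9 melanocyte markers on the array 8 were detected on none of the 8 arrays, with summed signals of 237 to 343 in EGBG and 302 to 558 in day 6 cells. None of 8 endothelial markers was detected. Of 12 immune markers 7 were detected on none, PTPRC, CD3E and ITGAM among them, with sums of 4706 to 5349 and 3738 to 6380. The remaining 5 were detected on at least 1 array. Of these, 4 were tested, each detected on all 8 arrays, with 1 higher (HLA-DRA) and 1 lower (CD207). Of 10 fibroblast markers 7, including COL1A2, COL3A1 and PDGFRA, were detected on none, with sums of 1086 to 1526 in EGBG and 508 to 1215 in day 6 cells. Of the 2 tested, ACTA2, smooth muscle actin, was the member called: it had 9.30, 9.67, 9.48 and 9.50, against 7.55, 7.87, 7.28 and 7.83 (1.85 ± 0.15, adjusted p = 8.64e-10), and averaged 9.05 ± 0.19 in undifferentiated cells. COL1A1, the other, went the opposite way at -0.63 and was not called in the main fit. It was called lower with the replicate block (adjusted p = 0.0138) and in the authors' normalized table (-1.13, adjusted p = 0.00595).

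With spermidine and spermine added, far fewer probes separated EGBG cells from their controls. EGBG with SDSM against SDSM, which shares no array with the comparison above, differed at 94 of 11828 probes (0.795%), 64 higher and 30 lower, and 1680 had an unadjusted p under 0.05. With the replicate number as a block the count was 262, and without day 6 replicate 1, which enters through the shared estimate of the spread, it was 152. The difference between the EGBG effects with and without SDSM passed the test at 2459 probes (20.8%). Of the 5027 probes called in EGBG against day 6, 2351 were among them, each with a difference opposite in sign to the EGBG effect. The effect without SDSM is subtracted in that difference, so for probes called by that effect the opposite sign was largely set in advance. S100A7 averaged 15.05 ± 0.21 in EGBG with SDSM and 15.06 ± 0.14 in SDSM, COQ8A 5.39 ± 0.08 and 5.39 ± 0.09, and ARG1 13.36 ± 0.12 and 13.54 ± 0.19 (SD, n = 4 each). KRT23, CBS and OVOL1, named like MMP10 after their values were seen, were still lower with SDSM, by 0.97, 1.45 and 0.93 on the log2 scale (adjusted p = 0.0397, 0.0223 and 0.0123). MMP10 fell without SDSM (-1.53 ± 0.27) and rose with it (1.30 ± 0.27, adjusted p = 0.0223). ASNS and PSAT1 differed by -1.41 ± 0.40 and -1.84 ± 0.51 with SDSM, short of the threshold (adjusted p = 0.0952 and 0.0853), and their effects with and without it were not shown to differ (adjusted p = 0.124 and 0.729). Over the 25 genes of the ATF4 list, the median difference was -0.57 with SDSM and -0.76 without it. Over all genes tested, the medians were 0.02 and 0.08.

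**Figure D5:**
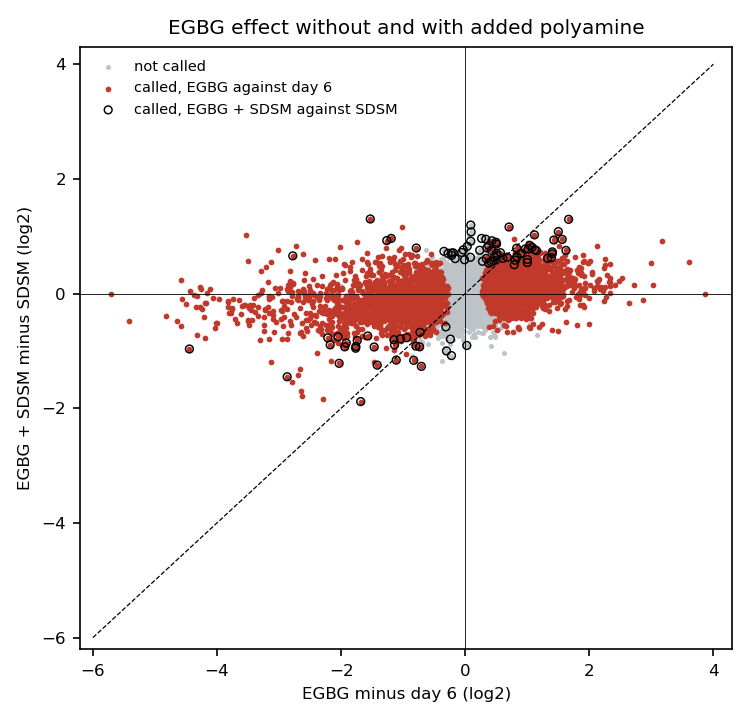
Each point is 1 of the 11828 tested probes, with the EGBG minus day 6 difference (horizontal, log2) and the EGBG with SDSM minus SDSM difference (vertical, log2); the dashed line marks equal effects, red marks probes called without SDSM and open rings the 94 called with it. The horizontal spread reaches from -5.70 to 3.87, while most vertical values lie near 0.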

How the data were processed

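RNA of N/TERT-1 keratinocytes was hybridised to Illumina bead arrays, 1 colour and 1 array per sample, 24 arrays in 6 groups of 4. The deposited value table holds unnormalized probe intensities; GenomeStudio is named in the submitters' processing notes, with no version there. A second deposited table holds intensities that the authors had normalized, in which 65.7% of values stand at a floor of 40; it had been taken for raw values when the tests were planned, and was used as an alternative. It also holds the deposited detection p-values, which were matched by probe and array to the unnormalized intensities; how the authors' software computed them is not given in the sources used here. In it 364 tested probes stood at the floor on all 24 arrays and gave no value.

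Intensities of all 24 arrays were background-corrected from the detection p-values and quantile-normalized together with neqc in limma 3.58.1 (R 4.3.3, offset 16), which gives log2 signals. The 11828 probes below a detection p-value of 0.01 in 4 or more of the 8 arrays were fitted with lmFit and eBayes over 6 groups (18 residual degrees of freedom), with p-values adjusted by Benjamini-Hochberg over 11828 probes. A gene is represented by its brightest probe. A probe detected on no array of a group has a bound there ("at least N-fold"), set against the lowest detected signal of each array. The adjusted p printed beside a bound belongs to the fitted difference, not to the bound. Such a probe passed the filter through the other group alone. Gene symbols come from the platform annotation: 30102 probes have 1 symbol, 8 have several and 17194 none.

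Groups follow the labels, and p-values measure the spread between the stated biological replicates. Deviations from the group means correlated between same-numbered EGBG and day 6 arrays at 0.345, 0.617, 0.612 and 0.466. Arrays of the same pair of numbers (1 with 3, 2 with 4) correlated too, at 0.254 to 0.485, and EGBG replicate 4 with day 6 replicate 2 (0.485) more than with its own number. The labels number the replicates but do not say that a number pairs arrays. The main fit had no term for the replicate number, so its p-values are unpaired. Fits with the number as a block are given as an alternative. No 2 arrays shared more than 0.002% of values.

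The genes named are the polyamine genes, the 10 largest rises and falls without overlap, the 8 largest each way among probes detected on all 8 arrays, the 6 brightest detected in 1 group alone, up to 4 per list, genes whose probes disagree, the largest differences in response with SDSM, and markers. The members and lists were chosen with earlier results of these data known. Other scalings, filters, fits, the replicate block, array weights and leaving out each array were tried; a chip block was not run, since the headers name no chip. Fits were tested on simulated data. Promoters are RefSeq sequences on GRCh38.p14, of which 6390 tested genes had one, and 7 motifs were searched.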

Additional observations from a re-analysis of the deposited data

Results flagged for a closer look

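Among 344 groups of 4 arrays looked at for the genes named, 21 held 1 array far from the other 3; chance alone marks about 1 group in 20. In EGBG cells these were, in log2 signal, SMS at 10.15 in replicate 3 (9.19 to 9.35 on the others), RRM2B at 8.62 in replicate 3, KRT23 at 8.1 in replicate 3 (7.34 to 7.43), GPD1L at 10.19 in replicate 1 (9.6 to 9.64), PSMB10 at 10.9 in replicate 1 (11.6 to 11.67), SPRR2A at 9.26 in replicate 1 (7.31 to 7.59), IL36G at 7.12 in replicate 1 (5.5 to 5.76), ENOPH1 at 11.95 in replicate 4 (11.55 to 11.60), TAP2 at 9.2 in replicate 2 (8.86 to 8.87) and KLF4 at 10.26 in replicate 2 (9.96 to 9.99). In day 6 cells they were NR2C2AP at 7.68 in replicate 1 (8.47 to 8.59), SPRED1 at 7.6 in replicate 1 (8.54 to 8.58), HPGD at 8.41 in replicate 1 (8.84 to 8.91), DHPS at 10.13 in replicate 1 (10.88 to 10.95), CABYR at 5.71 in replicate 3 (6.32 to 6.43), PSAT1 at 11.82 in replicate 3 (10.61 to 10.79), CDC20 at 7.29 in replicate 3 (7.99 to 8.08), FLG at 13.59 in replicate 3 (14.48 to 14.59), S100A10 at 15.46 in replicate 2 (15.14 to 15.18), APIP at 6.78 in replicate 3 (6.06 to 6.18) and SLC2A3 at 12.58 in replicate 4 (12.09 to 12.17).

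The effect of EGBG differed with SDSM present at 2459 probes, by limma's test of the difference itself. Given as the effect with SDSM minus the effect without, on the log2 scale, genes that fell without SDSM had positive differences: S100A7 5.69, SPRR2B 4.93, SERPINA12 4.8, WFDC12 4.48, ARG1 4.32, ODC1 1.12, OAZ1 0.78 and SAT1 0.54. Genes that rose without it had negative ones: COQ8A -3.87, HERC5 -3.05, EPCAM -2.97, PLD6 -2.87, AMD1 -1.51 and AZIN1 -0.66. The effect without SDSM is subtracted in each value, so these signs were largely set in advance.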

How the results depend on the processing

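No call of EGBG against day 6 was made with the opposite sign under any setting run. Leaving out 1 array gave 2452 to 2887 probes higher and 2010 to 2228 lower, 613 to 719 and 945 to 1030 at 2-fold, 1905 to 2251 and 1404 to 1582 among probes detected on all 8 arrays, 2129 to 2606 differences between effects, and 81 to 152 probes with SDSM (152 without day 6 replicate 1). The authors' normalized table gave 1381 higher and 2329 lower, and 989 higher among probes detected on all 8. Among probes detected on all 8 arrays alone, 601 fell 2-fold, since fewer were tested. Arrays 1 and 3 alone, a split added after seeing the data, gave 955 higher and 1040 lower, 720 and 669 of those detected on all 8, and 379 differences between effects, with fewer samples. The 94 probes called with SDSM became 60 with median scaling, 24 in the normalized table, 281 with array weights, 0 with arrays 1 and 3 alone and 6 with arrays 2 and 4 alone in limma; the cause was not tested. The replicate block gave 3195 higher and 2414 lower and 262 with SDSM; it kept 5022 of 5027 calls, and of 172 named probes it brought 6 past the threshold (COL1A1 -0.63, PMEL -0.50, ISL1 -0.56, S100A10 -0.25, JUP -0.42, SFN -0.36) and lost 0. CD207, a Langerhans cell marker at -1.22, lost its call with no filter (0.0863), in both fits on the 8 arrays alone (0.0817 and 0.0855), without EGBG replicate 2 or 4, or without day 6 replicate 1 or 3 (adjusted p 0.062 to 0.101). Probes not detected give only bounds, and the shared top signal limits the brightest.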

Other observations

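Counts for gene groups not described above follow, beside 26.1% of all genes higher and 20.4% lower. Tubulins were lower at 6 of 11 tested and higher at 0, with a median difference of -0.63 on the log2 scale. Connexins were lower at 3 of 5 and higher at 0, and annexins were lower at 5 of 9 and higher at 2. Laminins were higher at 3 of 5 and lower at 0. Of 124 solute carriers 28 were higher and 43 lower. Cholesterol synthesis had 6 of 17 genes lower and 1 higher, and fatty acid metabolism 7 of 21 lower and 1 higher (2 higher with the replicate block). In that list the fatty acid receptor CD36 fell by 3.43 ± 0.18 on the log2 scale. The median difference over all genes was 0.08. These groups were chosen from all those counted, after their values were seen.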
